A study of Prunus persica with 8 samples.

Results

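The distal end of peach (Prunus persica) chromosome Pp06 was described gene by gene in the shoot tips of 4 pillar and 4 standard trees. Members were the genes that start at or beyond position 28000000 of Pp06 in peach genome version 2 and that had a mean level of at least 0.5 TPM over the 8 trees, and 1 further gene was left out by the rule. TPM, transcripts per 1000000, corrects the reads of a gene for its length and for the size of the library. Of the other 533 genes of the interval, 436 met the minimum and are the members. The remaining 97 did not, and 29 of these were at 0 TPM in every tree. The whole table holds 26873 genes, of which 20055 met the same minimum and were tested, 2317 of them on the rest of Pp06. The interval was picked with earlier results on the variation between these trees known. The way the trees were arranged by the level of its genes is therefore given as a description, with no test.

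All 8 trees were mature, field-grown and untreated. They came from 1 segregating population, raised from a self-pollinated tree (KV991636) that is heterozygous for the pillar trait and descends from a cross of the pillar tree Kv93065 with "Weeping White". Pillar trees carry the tac1 mutation on both copies (tac1/tac1) and have vertical branches, whereas trees labelled standard have the usual spreading habit. For the trees it measured in this population, the study writes the standard genotype as TAC/TAC1. The TAC1 genotype of the sequenced standard trees was not analysed here. Heterozygous trees are upright, and no tree labelled upright is among the 8. RNA came from lateral shoot tips with the leaves removed, 3 tips per tree in the methods and 4 in the labels, and each tree gave 1 library of single 50-bp reads. Trees are numbered 4, 7, 8 and 10 in the pillar group and 7, 8, 9 and 10 in the standard group, where an equal number does not mean a shared plant. Levels listed below across pillar or standard trees follow these orders. An earlier study had already used the libraries of the standard trees. By the column names, the libraries of pillar trees 4 and 7 ran in lane 8 and the remaining 6 in lane 6. Whether both growth habits were harvested together is not given in the sources used here, so a harvest batch and the growth habit cannot be told apart.

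TAC1 promotes the outward growth of branches and lies on another chromosome, Pp02. In a population raised by selfing, a tree can carry like or unlike copies of each region of the parent's chromosomes, and regions on different chromosomes are inherited independently of each other. Trees of the same growth habit therefore need not carry the same copies of a region of Pp06. Genotypes on Pp06 were not analysed here.

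As a check of the labels, TAC1 (Prupe.2G194000, Pp02 from 23233979 to 23236950) was at 0.802, 0.830, 1.15 and 1.27 TPM across pillar trees and at 23.8, 17.2, 25.9 and 28.2 TPM across standard trees. Its log2 fold change was -3.99 (pillar minus standard, SE 0.19, adjusted p = 4.31e-05 from limma). Within a tree, TPM times gene length came in whole steps of 1 read for 100% of the values under 10000 reads, with a tolerance of 0.05 reads, so read numbers could be recovered. They came to between 18429259 and 23994336 per tree, and the members took between 2.46% and 2.59% of them. The mean level of the members ranged from 0.502 to 1129 TPM, with a median of 17.4 TPM. Marker genes of shoot tip tissue were not examined, because neither the table nor the annotation used here describes what a gene encodes. In whole tissue, fewer cells of a type and less RNA per cell cannot be told apart, which holds for every level below.

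The annotation used for gene names was that of RefSeq (assembly Prunus_persica_NCBIv2), which matched 391 members (89.7%) by position. Of these, 369 are protein-coding, 13 are long non-coding RNAs, 8 are pseudogenes and 1 is a transcribed pseudogene. The regions of 42 members overlap that of another gene, and reads there can come from either gene. The first member, Prupe.6G312900, starts at 28007304 with a mean of 10.8 TPM, and the nearest gene before the boundary, Prupe.6G312700, starts at 27995588 with a mean of 24.4 TPM. At the minimum level, Prupe.6G351500 lay just inside with a mean of 0.502 TPM and Prupe.6G362400 just outside with 0.494 TPM.

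A set of 8 genes of distal Pp06 put the same trees on the same side, and each side held pillar and standard trees alike. To describe how the trees were arranged, the 8 trees were sorted for each gene by log2(TPM + 0.5), and the distance between the 4th and the 5th tree was taken as the middle gap. A middle gap of at least 1.5-fold was found for 12 members, beside 1.69% of all tested genes. In 8 of these 12, pillar trees 4 and 8 and standard trees 7 and 9 formed one side and pillar trees 7 and 10 and standard trees 8 and 10 the other. Of all 20055 tested genes 10 (0.0499%) had this arrangement with such a gap, so that 8 of the 10 were members, and the other 2 lay on Pp08. The arrangement was picked from these same members, as the commonest one where neighbouring trees lay at least 1 apart on the log2 scale. Its higher share here than among all tested genes is in part fixed by that choice. Each side held 1 tree of lane 8 and 3 trees of lane 6. The 35 possible arrangements of 4 trees against 4 were all seen among the members when gaps of any size were counted.

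The widest separation was that of Prupe.6G347800 (Pp06 from 29738733 to 29742863, minus strand), which RefSeq lists as the pseudogene LOC18772414. It was at 3.78, 0.0314, 8.05 and 0 TPM across pillar trees and 5.91, 0.0275, 7.83 and 0 TPM across standard trees. It was read in pillar trees 4 and 8 and standard trees 7 and 9 and all but unread in the other 4 trees. The former rested on 131, 302, 219 and 292 reads, whereas pillar tree 7 and standard tree 8 had 1 read each. Pillar tree 10 and standard tree 10 had no read, which allows up to 0.0762 and 0.0774 TPM (3 reads, counting error only). Its region overlaps that of Prupe.6G347600 (29734568 to 29739564), which ranged only from 16.7 to 25.3 TPM over the 8 trees.

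Prupe.6G351800 (29976409 to 29981222, minus strand, LOC109949772, protein-coding) was at 7.92, 0.566, 6.49 and 0.240 TPM across pillar trees. Across standard trees it was at 14.9, 0.425, 7.34 and 0.421 TPM. The lowest of the 4 higher trees, pillar tree 8, was 11.5-fold above the highest of the 4 lower trees, pillar tree 7. This was the only one of the 8 genes in which pillar tree 8 rather than pillar tree 4 lay nearest to the other side.

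The most abundant of the 8 was Prupe.6G322600 (28453212 to 28454480, minus strand, LOC18772628, protein-coding). It was at 152, 34.3, 547 and 28.9 TPM across pillar trees and at 319, 30.6, 336 and 40.3 TPM across standard trees. The 4 lower trees lay between 28.9 and 40.3 TPM and the 4 higher trees between 152 and 547 TPM. Pillar tree 4 was 3.77-fold above standard tree 10, the nearest tree of the lower side.

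Nearer to the start of the interval, Prupe.6G321700 (28424258 to 28427284, plus strand, LOC18774991, protein-coding) was at 15.0, 7.81, 72.6 and 7.63 TPM across pillar trees and at 41.5, 6.84, 28.6 and 9.16 TPM across standard trees. Pillar tree 8 stood highest and pillar tree 4 was 1.63-fold above standard tree 10. In the other direction, Prupe.6G324200 (28560804 to 28565894, minus strand, LOC18774987, protein-coding) was at 5.64, 1.84, 5.90 and 1.77 TPM across pillar trees and at 7.75, 1.94, 8.29 and 2.11 TPM across standard trees. The sides of this gene lay 2.67-fold apart.

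A neighbouring pair showed the arrangement near the start of the interval. Prupe.6G314000 (28061726 to 28064959, minus strand) is the long non-coding RNA LOC18774362 in RefSeq and was at 3.87, 1.32, 5.31 and 1.69 TPM across pillar trees and at 4.17, 1.16, 6.64 and 1.09 TPM across standard trees. Its sides lay 2.29-fold apart. The next gene, Prupe.6G314100 (28066437 to 28068860, minus strand, LOC18773926, protein-coding), was low throughout, at 0.492, 0.0536, 1.27 and 0.0433 TPM across pillar trees and at 1.24, 0.0469, 1.74 and 0.0879 TPM across standard trees. It had 10, 28, 27 and 38 reads in the higher trees and 1 or 2 reads in each of the others.

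One of the 8 ran the other way. Prupe.6G317000 (28191590 to 28194201, minus strand, LOC18775392, protein-coding) was at 14.4, 25.5, 8.30 and 25.4 TPM across pillar trees and at 6.45, 25.7, 6.32 and 24.2 TPM across standard trees. Here pillar trees 7 and 10 and standard trees 8 and 10 were the higher trees, between 24.2 and 25.7 TPM. Pillar tree 4 again stood between the rest of its side and the other side, 1.68-fold below standard tree 10.

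**Figure D1:**
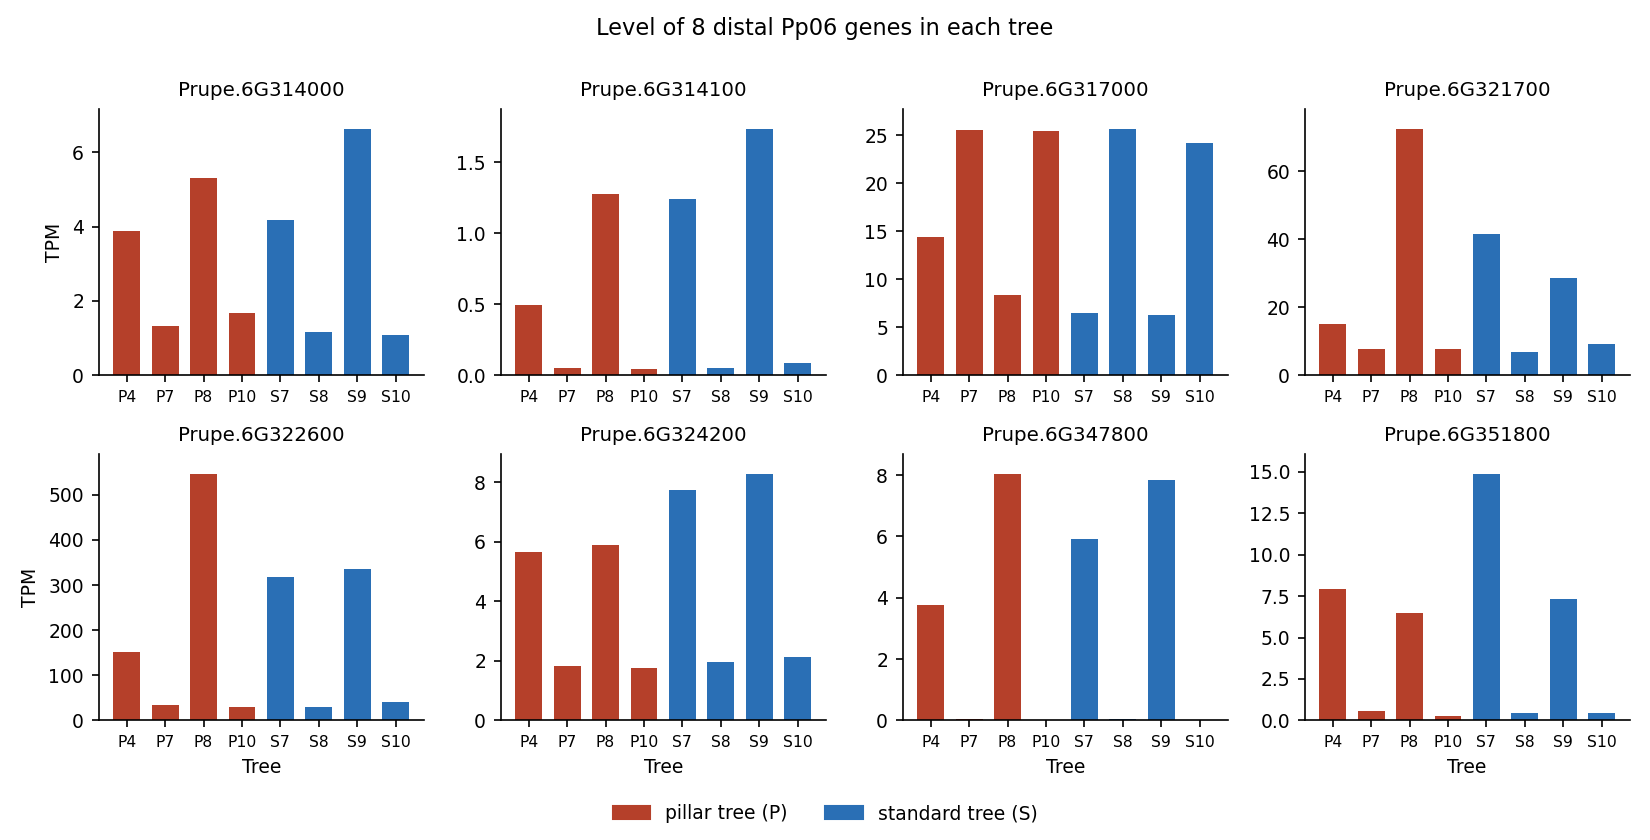
TPM (vertical axis, linear, starting at 0) of the 8 genes in each of the 4 pillar trees (P, red) and 4 standard trees (S, blue), 1 bar per tree and 1 library per bar. Within each growth habit 2 trees are high and 2 are low, and Prupe.6G317000 shows the same sides reversed.

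Since each side of the arrangement holds 2 pillar and 2 standard trees, small differences between growth habits are fixed by the choice of these 8 genes, and their values are given only as a description. Their log2 fold changes of pillar minus standard ranged from -0.31 to 0.38, with standard errors from 0.55 to 1.26. For Prupe.6G322600 the mean over pillar trees was 191 ± 244 TPM and that over standard trees 181 ± 169 TPM (SD, n = 4).

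Pillar tree 4 was most often the tree of its side that lay closest to the other side. It was nearest to the other side in 7 of the 8 genes and farthest from it in none, while standard tree 9 was farthest in 4, pillar tree 8 in 3 and standard tree 7 in 1. When pillar tree 4 was set aside, 12 members had pillar tree 8 and standard trees 7 and 9 on one side and all 4 trees of the other side at least 1.5-fold away, beside 0.184% of all tested genes. At any distance it was 49 members (11.2%), beside 3.9% of all tested genes. This comparison was chosen after the values were seen. Pillar tree 4 also stood out beyond the members, as the highest of the 8 trees in 31.8% of all tested genes, more than any other tree. The 8 genes were among the 12, and pillar tree 4 lay between the sides in 10 of the 12. The 4 added genes were Prupe.6G323400, Prupe.6G324400, Prupe.6G329200 and Prupe.6G353800. Prupe.6G324400 (LOC18775056, protein-coding) was at 10.4, 6.72, 2.21 and 9.37 TPM across pillar trees and at 2.34, 8.21, 3.14 and 11.1 TPM across standard trees, so that pillar tree 4 was with the trees of the other side. Prupe.6G329200 (LOC18775559, protein-coding) was at 34.7, 22.6, 71.0 and 26.2 TPM across pillar trees and at 50.6, 22.3, 54.4 and 21.7 TPM across standard trees. Prupe.6G323400 and Prupe.6G353800 were at 2.36 TPM or less in every tree. Their distances rest on few reads, 1 to 14 per tree in the first and 1 to 19 in the second. With any other single tree left out the arrangement was found for 8 to 11 members, and it was found for 11 without pillar tree 10. Leaving out a tree, pillar tree 4 included, can only keep or raise this count. The 8 genes therefore could not be lost, and these counts do not test how far the arrangement depends on single trees. The share of all tested genes rose too, from 0.0499% with all 8 trees to at least 0.0698% with a tree left out.

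The genes with this arrangement were spread over 1.91 Mb and were not neighbours of each other except for the first pair. The 8 lay between 28.06 and 29.98 Mb, a stretch that holds 309 members. Prupe.6G324200 and Prupe.6G347800 were separated by 1.18 Mb and 193 members. The 14 other members directly before or after one of the 8 did not have the arrangement at any distance, and their highest middle gap was 0.32 on the log2 scale. The 8 were between 1269 and 5091 bp long, with a median of 3130.5 bp against 3190.5 bp for all members. Of the 8, 7 were on the minus strand, beside 50.5% of the members.

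Counted without a minimum distance, 33 members (7.57%) had the arrangement, beside 1.71% of all tested genes. Pillar trees 4 and 8 and standard trees 7 and 9 were the higher trees in 25 of the 33 and the lower trees in 8. In the 25 genes under the 1.5-fold limit the middle gap ranged from 0.0011 to 0.45 on the log2 scale, with a median of 0.10. Most of the 33 lay in the first Mb of the interval, where 23 of 171 members (13.5%) had the arrangement, against 10 of 265 (3.77%) beyond it. Of the 8 genes with the wide gap, 6 started in this first Mb. In windows of 0.25 Mb the count was 7 of 42 members in the first, 8 of 41 in the second, 4 of 45 in the third and 4 of 43 in the last window before 29 Mb. It was 0 of 26 and 1 of 43 in the next windows, 3 of 47 and 3 of 35 between 29.5 and 30 Mb, and 1 of 34, 2 of 47 and 0 of 33 from there to the end. Of the 168 windows of 1 Mb with at least 50 tested genes across the genome, the one from 28 Mb of Pp06 had the highest share. The next was the window from 6 Mb of Pp01 with 5.80%, while the window from 27 Mb of Pp06, just before the interval, had 2.0%. The arrangement was picked from the members of this interval, so the shares here and the top rank are in part fixed by that choice.

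**Figure D2:**
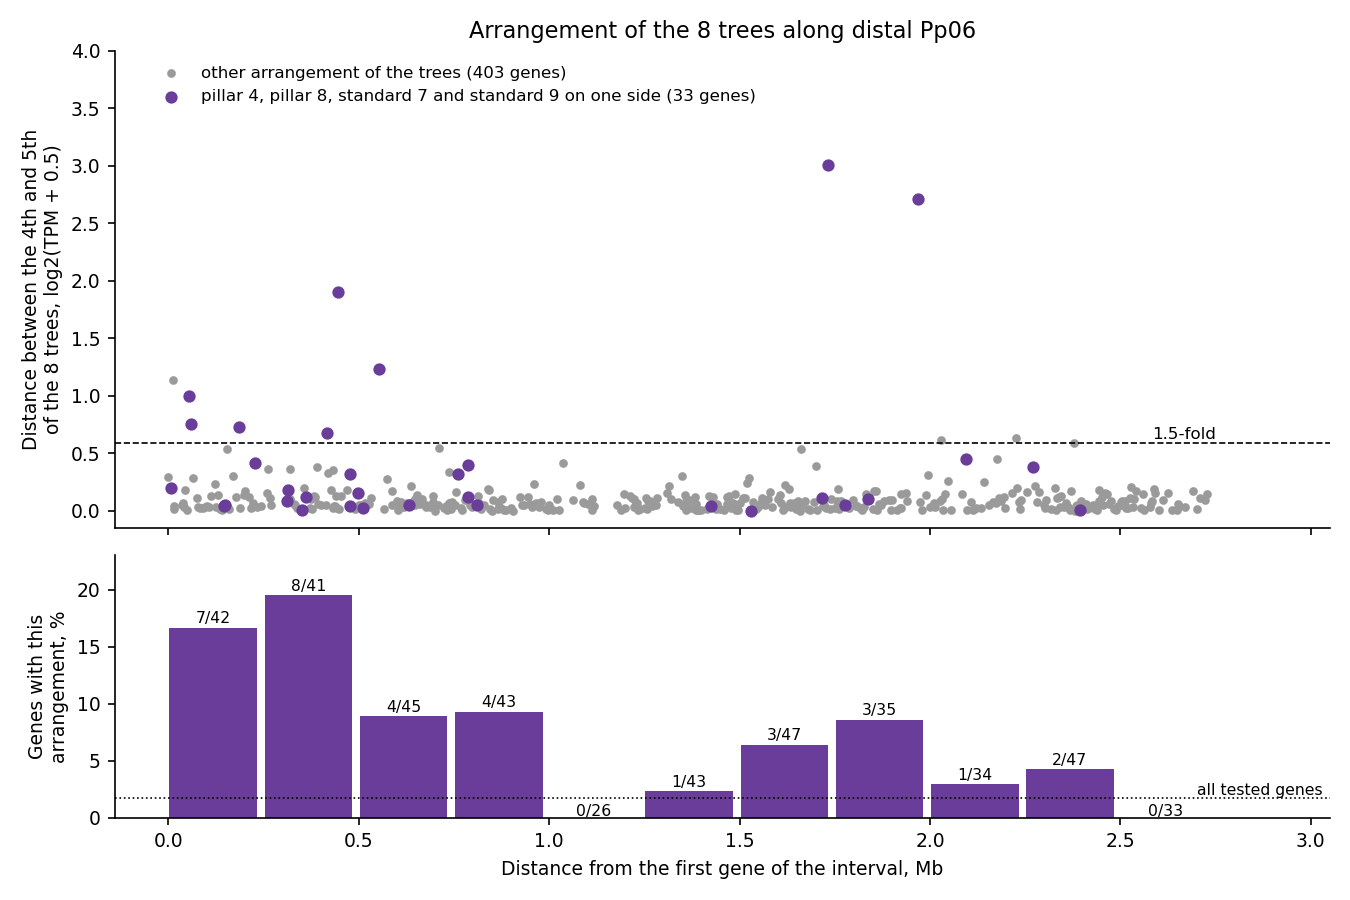
Upper panel, the distance between the 4th and 5th of the 8 trees on the log2(TPM + 0.5) scale for each of the 436 members against the distance from the first gene in Mb, with the 33 genes that put pillar trees 4 and 8 and standard trees 7 and 9 on one side in purple and the 1.5-fold limit dashed. Lower panel, the share of members with this arrangement in windows of 0.25 Mb, with counts above the bars and the share of all tested genes (1.71%) dotted; the 2 highest bars are 7 of 42 and 8 of 41.

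Among the smaller gaps, Prupe.6G317900 (LOC18775315) was at 0.912, 0.508, 0.843 and 0.393 TPM across pillar trees and at 0.926, 0.463, 0.956 and 0.434 TPM across standard trees. Prupe.6G323000 (LOC109950018) was at 14.2, 17.8, 11.5 and 19.4 TPM across pillar trees and at 12.3, 20.8, 12.8 and 19.7 TPM across standard trees. Both repeated the sides of the 8 genes at a distance under 1.5-fold, the second with the sides reversed, and the region of Prupe.6G323000 overlaps another gene.

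Genes with a pattern over the 8 trees like that of Prupe.6G347800 were found within and outside the interval. Likeness was taken as Pearson's r of log2(TPM + 0.5) over the 8 trees, given as a description because the trees are few and share their libraries across genes. There were 12 other members with an r of at least 0.9 in size (2.76%), 9 positive and 3 negative, and 23 genes outside the interval (0.117% of the other tested genes). The 12 include all other genes of the set of 8, which were chosen for the same sides. Their high r follows in large part from that choice, so these shares are not independent evidence. The highest r was that of Prupe.6G322600 with r = 0.985, followed by Prupe.6G324200 with r = 0.981 and Prupe.6G314000 with r = 0.978. The most negative was Prupe.6G323000 with r = -0.975. Of the next most alike genes outside the interval, Prupe.4G079100 on Pp04 had r = 0.977.

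Most members varied little between trees. The median SD over the 8 trees was 0.25 on the log2 scale for the members and 0.27 for both the rest of Pp06 and all tested genes. The largest distance between neighbouring trees in the sorted order, here called the gap, was at least 1 on the log2 scale for 6 members (1.38%), beside 4.92% of all tested genes. The gap was at least 1.5-fold for 42 members (9.63%), beside 15.1% of all tested genes. Both shares lay below those of all tested genes. Of the 6 widest gaps, 4 belonged to the 8 genes above. Another, of 1.34, was that of Prupe.6G313100 (28018522 to 28018957), at 0, 2.38, 4.04 and 0 TPM across pillar trees and at 0.767, 2.61, 2.29 and 0 TPM across standard trees. It was read in both growth habits, and the 3 trees at 0 allow up to 0.722 to 0.820 TPM (3 reads). The lowest tree above the gap, standard tree 7, had 3 reads, so this gap is not resolved from counting error. The last was Prupe.6G353800, in which pillar tree 8 stood alone above the gap with 2.01 TPM. This rests on 19 reads, against 7 in standard tree 9, the next highest. The count of 6 was 13 without pillar tree 4 (beside 4.44% of all tested genes) and 11 without standard tree 9 (beside 5.48%). With library-size scaling it was 3 (beside 3.41%), and with a pseudocount of 0.1 it was 17 (beside 7.63%).

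In 16 of the 42 members with a 1.5-fold gap a single tree stood apart, above the others in 5 and below them in 11. In Prupe.6G315800, for example, standard tree 9 was at 125 TPM and the other 7 trees were between 241 and 463 TPM. In Prupe.6G332300 pillar tree 8 and standard tree 9 were at 5.16 and 6.16 TPM and the other 6 trees between 10.6 and 14.3 TPM. In the remaining 26 members 2 to 6 trees lay above the gap. Of these, 5 had the arrangement of the 8 genes, 5 had pillar tree 8 and standard trees 7 and 9 below all other trees or above them, and 0 separated pillar from standard trees. Over these 26 members pillar tree 10 and standard tree 10 were on the same side in 21 (80.8%, beside 44.3% of the tested genes with such gaps). Standard trees 7 and 9 were together in 20 (76.9%, beside 55.0%), and pillar tree 10 and standard tree 8 in 19 (73.1%, beside 49.7%). Pillar tree 7 and standard tree 8 were also together in 19, beside 62.5%, and pillar tree 8 and standard tree 10 in 5 (19.2%, beside 34.5%). These pair counts are not independent of the arrangement above, since 10 of the 26 members show it or its 3 against 5 form.

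**Figure D3:**
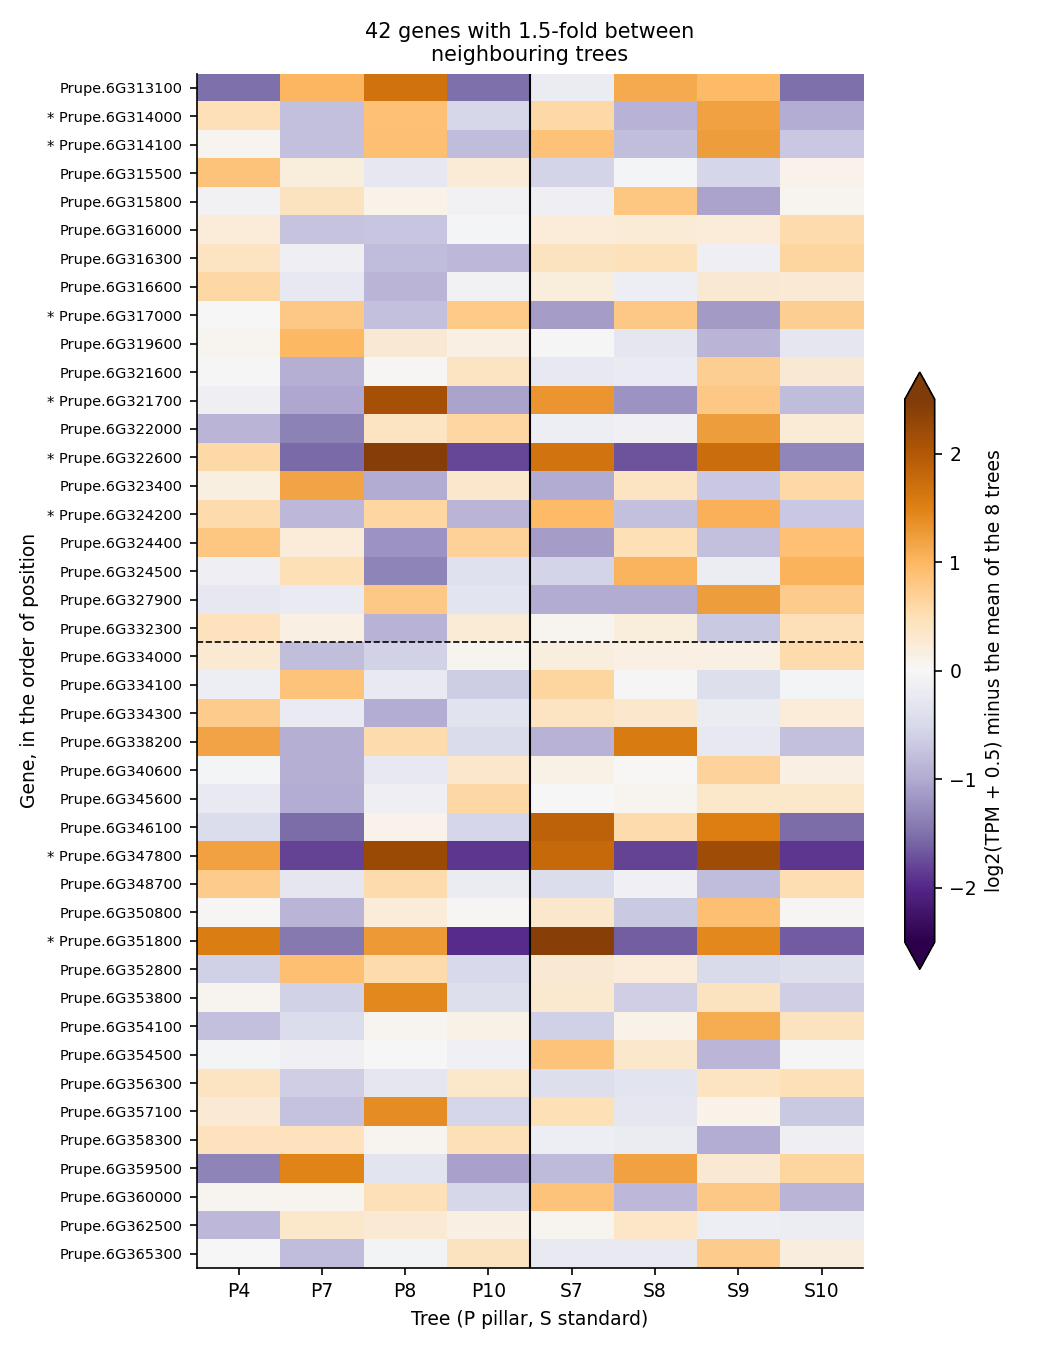
The 42 members with at least 1.5-fold between neighbouring trees, in the order of their position from top to bottom, with the 4 pillar (P) and 4 standard (S) trees as columns. Colour is log2(TPM + 0.5) minus the mean of the 8 trees, stars mark the 8 genes, and the dashed line marks 29 Mb; the starred rows alternate high and low within each growth habit, and none of the 42 separates all pillar from all standard trees at its widest gap.

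Other wide gaps followed other trees. Prupe.6G338200 (29321382 to 29321524) was at 21.7, 4.54, 13.9 and 6.60 TPM across pillar trees and at 4.68, 28.6, 7.74 and 5.22 TPM across standard trees. These levels of a short gene rest on only 5 to 36 reads per tree. Prupe.6G357100 (LOC18775100) was at 19.3, 9.25, 42.5 and 10.7 TPM across pillar trees and at 22.5, 13.0, 17.0 and 9.73 TPM across standard trees. In the first, pillar trees 4 and 8 and standard tree 8 were high, and in the second pillar tree 8 stood alone. Prupe.6G334100 ranged from 1.37 to 4.70 TPM with pillar tree 7 and standard tree 7 highest, and Prupe.6G362500 ranged from 106 to 246 TPM with pillar tree 4 lowest. The 4 members with a middle gap of 1.5-fold that did not have the common arrangement were Prupe.6G313100, Prupe.6G352800, Prupe.6G356300 and Prupe.6G359500. Prupe.6G352800 ranged from 5.76 to 17.2 TPM, with pillar tree 4 lowest and pillar tree 7 highest. Prupe.6G356300 (LOC18775404) was at 8.07, 3.74, 4.83 and 7.78 TPM across pillar trees and at 4.39, 4.68, 8.05 and 8.58 TPM across standard trees. Prupe.6G359500 (LOC18772799) was lowest in pillar trees 4 and 10 with 3.70 and 4.45 TPM and highest in pillar tree 7 with 28.8 TPM.

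The comparison of growth habits gave no call among the members. Of the 436, 0 had an adjusted p under 0.05 (limma on log2(TPM + 0.5), Benjamini-Hochberg over all tested genes), beside 0.12% of all tested genes, and the lowest adjusted p was 0.484. At an unadjusted p under 0.05 there were 11 members (2.52%), beside 4.77% of all tested genes. Of these 11, 4 were higher in pillar trees, beside 1.86% of all tested genes, and 7 were lower, beside 2.91%. The growth habits did not overlap for 6 members (1.38%), beside 2.93% of all tested genes, with pillar trees above in 2 (beside 1.0%) and below in 4 (beside 1.93%). The log2 fold change was below 0 for 317 members and above 0 for 119, with a median of -0.10 against -0.09 for all tested genes, and it exceeded 1.5-fold in size for 9 members (2.06%) against 5.68% of all tested genes. The median share of variance between growth habits was 8.28% for the members and 9.57% for all tested genes. The count of 11 moved with single trees. It was 58 without pillar tree 4, where 14.5% of all tested genes had such a p, and 4 without standard tree 8 (beside 4.33%). Without standard tree 10 it was 6 (beside 2.82%), and within lane 6 it was 72 (17.1% of all tested genes). The count without overlap was 54 without pillar tree 4 (12.4% of the members, beside 14.0% of all tested genes) and 8 to 19 without any other single tree, where 3.68% to 6.13% of all tested genes did not overlap. With fewer trees this count can only stay at 6 or rise.

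**Figure D4:**
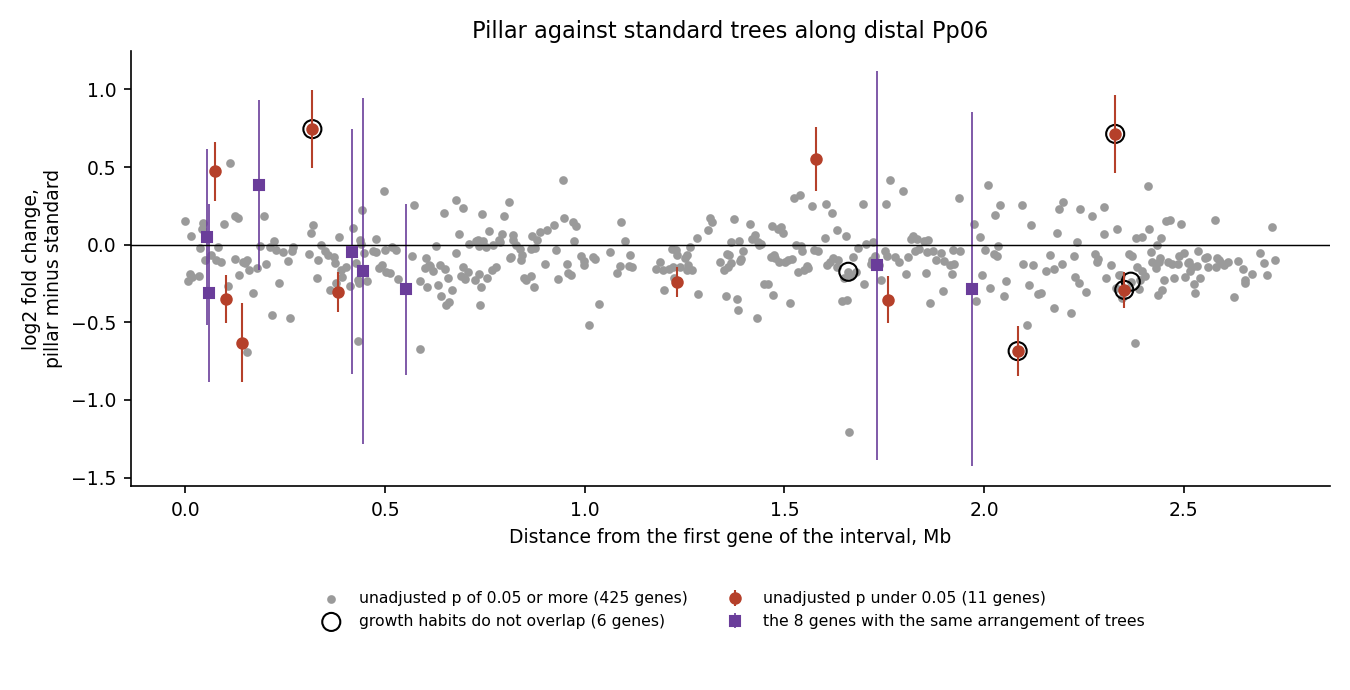
Log2 fold change of pillar minus standard trees (4 trees each) for the 436 members against the distance from the first gene in Mb; error bars are standard errors from limma, drawn for the 11 genes with an unadjusted p under 0.05 (red) and the 8 genes with the common arrangement of trees (purple). The 6 circled genes have growth habits that do not overlap, and the purple points lie near 0, which the choice of these genes fixes.

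Among the members whose growth habits did not overlap, the largest difference toward lower levels in pillar trees was that of Prupe.6G353700 (30091164 to 30099464), annotated in the study's gene list as a secretory carrier membrane protein, a family of vesicle trafficking. It was at 7.22, 5.43, 4.92 and 4.90 TPM across pillar trees and at 9.04, 9.41, 8.04 and 10.6 TPM across standard trees. Its log2 fold change was -0.69 (SE 0.16, adjusted p = 0.484 from limma). Prupe.6G359000 (30358104 to 30363632) ranged from 9.81 to 12.3 TPM over pillar trees and from 12.6 to 13.7 TPM over standard trees. Its log2 fold change was -0.29 (SE 0.11, adjusted p = 0.902 from limma).

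Toward higher levels in pillar trees, Prupe.6G319600 (28325214 to 28326929), annotated as a dormancy/auxin associated family protein, was at 526, 987, 604 and 553 TPM across pillar trees and at 491, 409, 267 and 409 TPM across standard trees. Its log2 fold change was 0.74 (SE 0.25, adjusted p = 0.902 from limma), and the lowest pillar tree lay close above the highest standard tree. Prupe.6G358300 (30335384 to 30337629), annotated as the wall-associated kinase WAK2, was low, at 1.22, 1.21, 0.833 and 1.26 TPM across pillar trees and at 0.645, 0.608, 0.148 and 0.664 TPM across standard trees. Its log2 fold change was 0.71 (SE 0.25, adjusted p = 0.902 from limma), and its levels rest on 3 to 27 reads per tree. Another gene of the study's list, Prupe.6G315500 (28120051 to 28125875), a protein of the ribonuclease H-like superfamily, ranged from 14.1 to 30.8 TPM over pillar trees and from 11.4 to 17.9 TPM over standard trees, which overlap. Its log2 fold change was 0.52, and pillar tree 4 was highest. The study chose these 4 genes on the same trees, so their direction is not independent evidence.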

How the data were processed

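Trimmed 50-bp reads were mapped by the authors against version 2 of the peach genome in CLC Genomics Workbench, which allowed a read several hits, and the authors deposited 1 TPM value per gene and tree. Their methods name RPKM, but the deposited values are TPM over whole gene regions, introns included. Their own group maxima, fold changes and p-values in the same table were not used. Whether counting used strand is not given in the sources used here.

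The first of 2 rows per gene was kept, since the second is 0 in every tree. Trees were grouped by the labelled growth habit. Pillar and standard trees were compared with limma 3.58.1 in R 4.3.3 (lmFit, eBayes with a variance trend, two-sided) on log2(TPM + 0.5) over 20055 genes, and on this scale fold changes of low genes come out too small. Gaps, arrangements and correlations were computed in Python 3.11.15 (pandas 2.3.3, numpy 2.4.6). The finding of gaps, the recovery of reads and the limma comparison were tested on simulated data, and the other steps were not. RefSeq genes were matched where both regions shared at least 50% of their length.

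Members and lists were chosen with earlier results of these data known. Named genes were the 12 members with the widest gap, the widest gap in each 0.25 Mb window, members without overlap of growth habits at an unadjusted p under 0.05, members of the study's gene list, genes next to the thresholds and the leading arrangement. Others were named after their values were seen. Alternatives were scaling by library size or upper quartile, pseudocounts of 0.1 and 1, no minimum or a minimum of 2 TPM, each tree left out, the tree number as a block, no variance trend, lane 6 alone and other gap thresholds. Each library came from a separate tree.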

Additional observations from a re-analysis of the deposited data

Results flagged for a closer look

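Within a growth habit of 4 trees, a single tree stood far from the other 3 in 4 of the 50 comparisons made on 25 named genes of the interval. Chance gives such a separation in about 1 of 20 groups of genes not chosen for their values, but most of these genes were named for wide gaps between trees, so the 4 cannot be read against that rate. In Prupe.6G312900 standard tree 7 was at 12.8 TPM and the other standard trees between 9.15 and 9.49 TPM, a gap that took 0.891 of the range of the group on the log2 scale. In Prupe.6G327900 pillar tree 8 was at 1.21 TPM and the other pillar trees between 0.288 and 0.357 TPM (0.893 of the range). This rests on 4 reads in pillar tree 8 and 1 read in each other pillar tree, and the region overlaps another gene. In Prupe.6G358300 a tree stood low in both growth habits, pillar tree 8 at 0.833 TPM against 1.21 to 1.26 TPM (0.902 of the range) and standard tree 9 at 0.148 TPM against 0.608 to 0.664 TPM (0.915 of the range). The levels of this gene rest on only 3 to 27 reads per tree.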

How the results depend on the processing

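The count of 0 members with an adjusted p under 0.05 and the direction of the members' median log2 fold change held under every alternative run, and the 6 genes whose fold changes are given kept their direction and their side of the threshold in all 72 comparisons. With one tree left out, 4 to 58 members had an unadjusted p under 0.05, 8 to 54 had growth habits that do not overlap and 6 to 13 had a gap of at least 1 on the log2 scale. The shares of all tested genes then ran from 2.82% to 14.5%, from 3.68% to 14.0% and from 4.44% to 5.66%. The count without overlap can only stay or rise with fewer trees, also within lane 6. Within lane 6 the 3 counts were 72, 118 and 15 (16.5%, 27.1% and 3.44% of the members, beside 17.1%, 28.6% and 4.75% of all tested genes). Library-size scaling gave 10 members without overlap (2.29%, beside 3.14% of all tested genes) and 3 with the gap (0.688%, beside 3.41%). Upper-quartile scaling gave 11 without overlap (2.52%, beside 3.12%), and a pseudocount of 0.1 gave 17 with the gap (3.9%, beside 7.63%). A gap threshold of 2 on the log2 scale left 2 members (0.459%, beside 1.2%), and one of 1.5-fold gave 42 (9.63%, beside 15.1%). With the tree number as a replicate block 62 members had an unadjusted p under 0.05 (16.3% of all tested genes) and 0 an adjusted one. The numbers do not pair the trees: deviations of equally numbered trees correlated at 0.287, 0.096 and -0.091 for trees 7, 8 and 10. The arrangement of the 8 genes with a 1.5-fold gap was also followed in alternatives chosen after seeing the data. It was found for 7 to 12 members, beside 0.0449% to 0.184% of all tested genes. The 12 were found without pillar tree 4, which gives the 7-tree arrangement. That arrangement was found for 9 to 13 members, beside 0.145% to 0.234% of all tested genes. Leaving out a tree can only keep or raise these counts. Levels under 1 TPM rest on few reads, and higher levels of short genes can do so too.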

Other observations

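Outside the interval, 2 genes had the arrangement of the 8 genes with a middle gap of at least 1.5-fold, both on Pp08 and both with pillar trees 7 and 10 and standard trees 8 and 10 high. Prupe.8G201000 (Pp08 from 18995896 to 18997553) was at 0.0719, 4.70, 0.996 and 7.91 TPM across pillar trees and at 1.34, 4.94, 1.67 and 6.56 TPM across standard trees. Prupe.8G095800 (Pp08 from 12796854 to 12797957) was at 10.4, 18.7, 9.07 and 18.1 TPM across pillar trees and at 9.90, 25.6, 6.12 and 17.9 TPM across standard trees.

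Prupe.6G346100 (29669041 to 29669250), whose region overlaps another gene, had the most negative log2 fold change of all members, -1.21 (SE 0.70, adjusted p = 0.902 from limma). It was at 0.568, 0, 1.05 and 0.50 TPM across pillar trees and at 4.78, 1.63, 3.69 and 0 TPM across standard trees, so both growth habits held a tree at 0. The trees at 0, pillar tree 7 and standard tree 10, allow up to 1.85 and 1.52 TPM (3 reads, counting error only), above the other pillar values, and the highest value rests on 9 reads.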
